A study of Homo sapiens with 12 samples.

Results

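The genes described are 48 lysosomal genes of a human cell line that was treated with acriflavine. They were chosen by symbol: hydrolases of the lysosomal lumen with their activators (25 genes), lysosomal membrane proteins (5), subunits of the vacuolar proton pump or V-ATPase (15) and the TFEB family of transcription factors (3). All 48 were found among the 63152 genes of the deposited count table, and 47 of them had enough counts to be tested, among 16839 genes tested in all. Poly-A RNA was sequenced from 12 cultures, 4 in each group, which the labels call biological replicates. Cultures near confluence were given fresh medium with no acriflavine (control), 2.5 µM acriflavine or 5 µM acriflavine and were collected after 24 h. Acriflavine contains several acridine dyes, which bind DNA. One label calls the controls untreated, whereas the treatment protocol describes DMSO as vehicle. Every culture carries the label HepG2, a hepatoblastoma line. The sample descriptions specify its derivative HepG2S1, selected in rising doses of the kinase inhibitor sorafenib, so control and treated cultures are the same selected line.

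Lysosomes are acidic organelles in which hydrolases break down proteins, glycans and lipids delivered by endocytosis and autophagy. The V-ATPase keeps them acidic: its cytosolic V1 sector splits ATP and turns a rotor, which drives protons through the membrane-bound V0 sector. TFEB, TFE3 and MITF are related factors that bind E-box sequences near the starts of many lysosomal genes, and the kinase complex mTORC1 holds TFEB and TFE3 in the cytosol of fed cells. Weak bases, a class that includes some acridines, are known to collect in acidic organelles. Where acriflavine went in these cells was not measured.

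Library totals ranged from 10733567 to 15116842 counts. The labelled cell type was checked with markers: of 13 hepatocyte genes, 12 averaged under 1 CPM (counts scaled to a common library size) in the controls, and ALB and AFP each had 2 counts over the 12 libraries, so most defining markers of the labelled cell type were absent or near 0. The 13 genes together reached 10.1 to 13.3 CPM (controls), 12.6 to 14.3 CPM (2.5 µM) and 21.7 to 25.3 CPM (5 µM). Most of the sum in controls came from FOXA1, which averaged 9.98 CPM there. Macrophages are rich in lysosomes. The 7 macrophage and blood markers summed to 1.02 to 2.2, 1.21 to 5.23 and 4.72 to 7.10 CPM in the same order. CD68 had 16 counts and CD163 had 1 over all libraries. PTPRC, ITGAM and CD14 averaged 0.0390, 0.129 and 0.511 CPM in controls and 2.26, 1.86 and 1.57 at 5 µM. CSF1R averaged 0.696 CPM in controls and 0.0691 at 5 µM. The 5 endothelial markers summed to 0.169 to 0.536, 0.616 to 1.36 and 7.12 to 8.67 CPM, with PECAM1 at 0. Most of that sum at 5 µM came from TEK and VWF, which averaged 6.23 and 1.65 CPM there and 0.168 and 0.139 in controls. The 7 fibroblast markers summed to 618 to 768, 548 to 604 and 556 to 598 CPM. Most of that sum came from DCN and LUM, which averaged 562 and 119 CPM in controls. COL1A2, COL3A1 and PDGFRA of the same list had 2, 6 and 1 counts over all libraries. The 5 cholangiocyte markers, led by KRT7, summed to 3617 to 4069, 3521 to 3986 and 1484 to 1781 CPM. KRT7 and KRT19 were lower at 5 µM than in controls (edgeR, adjusted p under 0.05), as were DCN and LUM of the fibroblast list. SOX9, CFTR and EPCAM were higher, as were COL1A1 and PDGFRB of the fibroblast list. Levels of these lists differed between groups, and their part in the results was not tested; in bulk RNA, fewer cells of a type and less RNA per cell cannot be told apart.

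The promoters of the genes are shown first, because the lysosomal response element contains an E-box. RefSeq promoters of GRCh38.p14, each running from 250 bases before to 50 bases after a transcript start, were found for 36 of the 48 genes. The E-box CACGTG, which reads the same on both strands, was present for 10 of these 36 genes (27.8%), against 8.77% of all 27305 genes with a promoter. The extended form TCACGTGA, which contains the E-box, was present for 6 of the 36 (16.7%), against 1.18% of all genes. Those 6 were LAMP1, MCOLN1, CTSA, GAA, ATP6V0D1 and ATP6V1G1, and the E-box alone was present for CD63, CTSD, NEU1 and ATP6V0B. The stretches below are the parts of 7 promoters that hold the E-boxes, 5′ to 3′ on the strand of the gene, with E-boxes in capitals. They cover the gene with the most copies (LAMP1), a gene with 2 extended forms close to its start (MCOLN1), the largest increases among the 10 genes at 5 µM (NEU1, ATP6V0D1, ATP6V0B), a gene that rose at neither dose (CTSD) and one that fell (GAA).
LAMP1: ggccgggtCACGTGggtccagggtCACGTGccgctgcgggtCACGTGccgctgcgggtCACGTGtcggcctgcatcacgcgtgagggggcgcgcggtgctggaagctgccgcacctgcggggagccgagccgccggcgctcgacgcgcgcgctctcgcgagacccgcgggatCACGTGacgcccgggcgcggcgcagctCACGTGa
MCOLN1: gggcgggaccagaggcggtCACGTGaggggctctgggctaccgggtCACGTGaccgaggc
ATP6V0D1: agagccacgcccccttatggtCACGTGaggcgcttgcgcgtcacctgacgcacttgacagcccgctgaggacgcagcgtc
ATP6V0B: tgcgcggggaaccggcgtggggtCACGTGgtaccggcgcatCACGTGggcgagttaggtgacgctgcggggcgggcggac
NEU1: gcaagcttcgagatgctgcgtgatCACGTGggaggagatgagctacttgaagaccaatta
CTSD: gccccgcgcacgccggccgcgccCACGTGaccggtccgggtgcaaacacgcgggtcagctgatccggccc
GAA: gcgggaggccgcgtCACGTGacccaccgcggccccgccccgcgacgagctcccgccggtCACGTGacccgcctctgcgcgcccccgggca
The LAMP1 stretch is chr13:113297039-113297244 on the plus strand and holds 6 E-boxes, of which 2 have the extended form and the last spans the transcript start. MCOLN1 (chr19:7522564-7522623, plus strand) holds 2 extended forms within 60 bases of its start, and ATP6V0D1 (chr16:67481158-67481237, minus strand) holds 1 within 80 bases. The ATP6V0B stretch is chr1:43974880-43974959 on the plus strand. That of NEU1 is chr6:31862912-31862971 on the minus strand and lies farther from the start, with its E-box beginning at position -126. The CTSD stretch is chr11:1763928-1763997 on the minus strand. The GAA stretch is chr17:80101491-80101580 on the plus strand, with 2 extended forms.

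**Figure D1:**
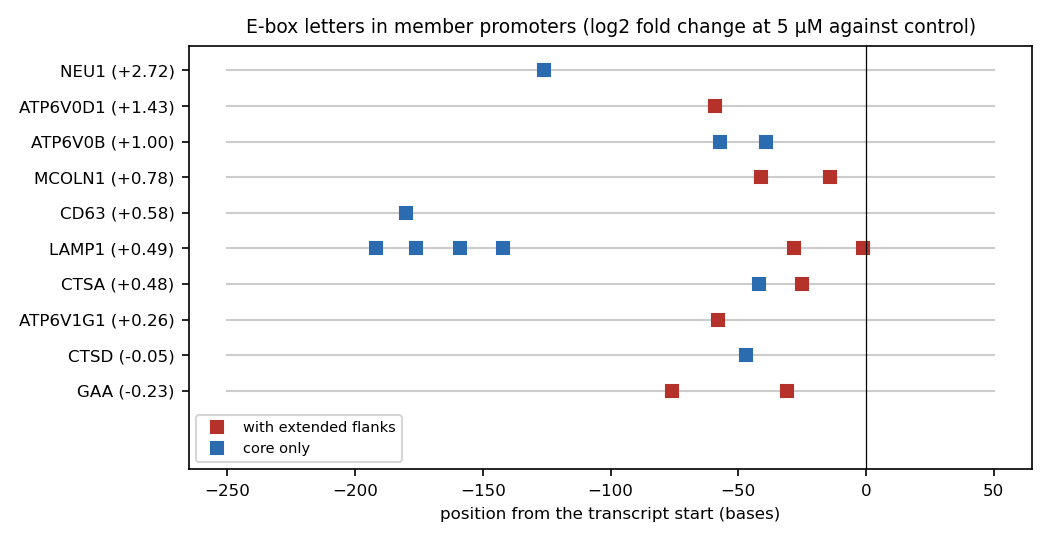
Positions of E-boxes in the promoters of the 10 genes that hold one, in bases from the transcript start (vertical line), with the log2 fold change at 5 µM against control beside each name. Squares mark the first base of an E-box, red where it is part of the extended form and blue otherwise. Positions run from -192 to -1, both in LAMP1, and genes with red squares include risers and GAA, which was lower.

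Of the 10 genes with an E-box, 8 were higher at 5 µM, 1 was lower (GAA) and 1 was not called (CTSD); at 2.5 µM the counts were 8 higher, 0 lower and 2 not called. Of the 26 genes whose promoter held none, 25 were tested: 13 were higher at 5 µM and 6 lower, and 6 were higher at 2.5 µM and 10 lower. Of all genes tested, 38.7% were higher and 39.4% lower at 5 µM, and 30.7% were higher and 28.5% lower at 2.5 µM. A match to these letters is a description of the sequence and was not tied to binding of any factor here.

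Across the 47 tested genes, most changes at 5 µM were increases: nearly all V-ATPase genes were higher, while hydrolase genes lay on both sides. At 5 µM against control 29 were higher and 10 lower (edgeR quasi-likelihood test, adjusted p under 0.05), where 38.7% of all genes tested were higher and 39.4% lower, 78.2% in all; the 29 were 61.7% and the 10 were 21.3% of the 47. The CPM values of 37 of the 47 did not overlap between the groups, against 70.8% of all genes. The median log2 fold change of the 47 was 0.26, with a range of -0.98 to 2.72, against a median of -0.01 over all genes. At least 2-fold increases were seen for 7 genes and 2-fold decreases for 0, where 15.6% and 10.8% of all genes passed these marks, so the count of large increases was near the background. The members' share of all counts lay between 0.649% and 0.685% in controls, between 0.711% and 0.730% at 2.5 µM, and between 0.936% and 0.982% at 5 µM, and the groups did not overlap.

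At 2.5 µM against control the pattern was mixed. There were 20 higher and 14 lower genes, 42.6% and 29.8% of the 47, where 30.7% of all genes were higher and 28.5% lower (59.1% in all). The share of lower genes was thus near the background. Values did not overlap for 30 genes, against 50.5% of all genes, and the median log2 fold change was 0.06, against 0.02 over all genes. At 5 µM against 2.5 µM, 29 were higher and 4 lower, where 33.6% of all genes were higher and 34.8% lower (68.4% in all). Values did not overlap for 33 genes, against 62.1% of all genes. The median was 0.20, against -0.01.

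**Figure D2:**
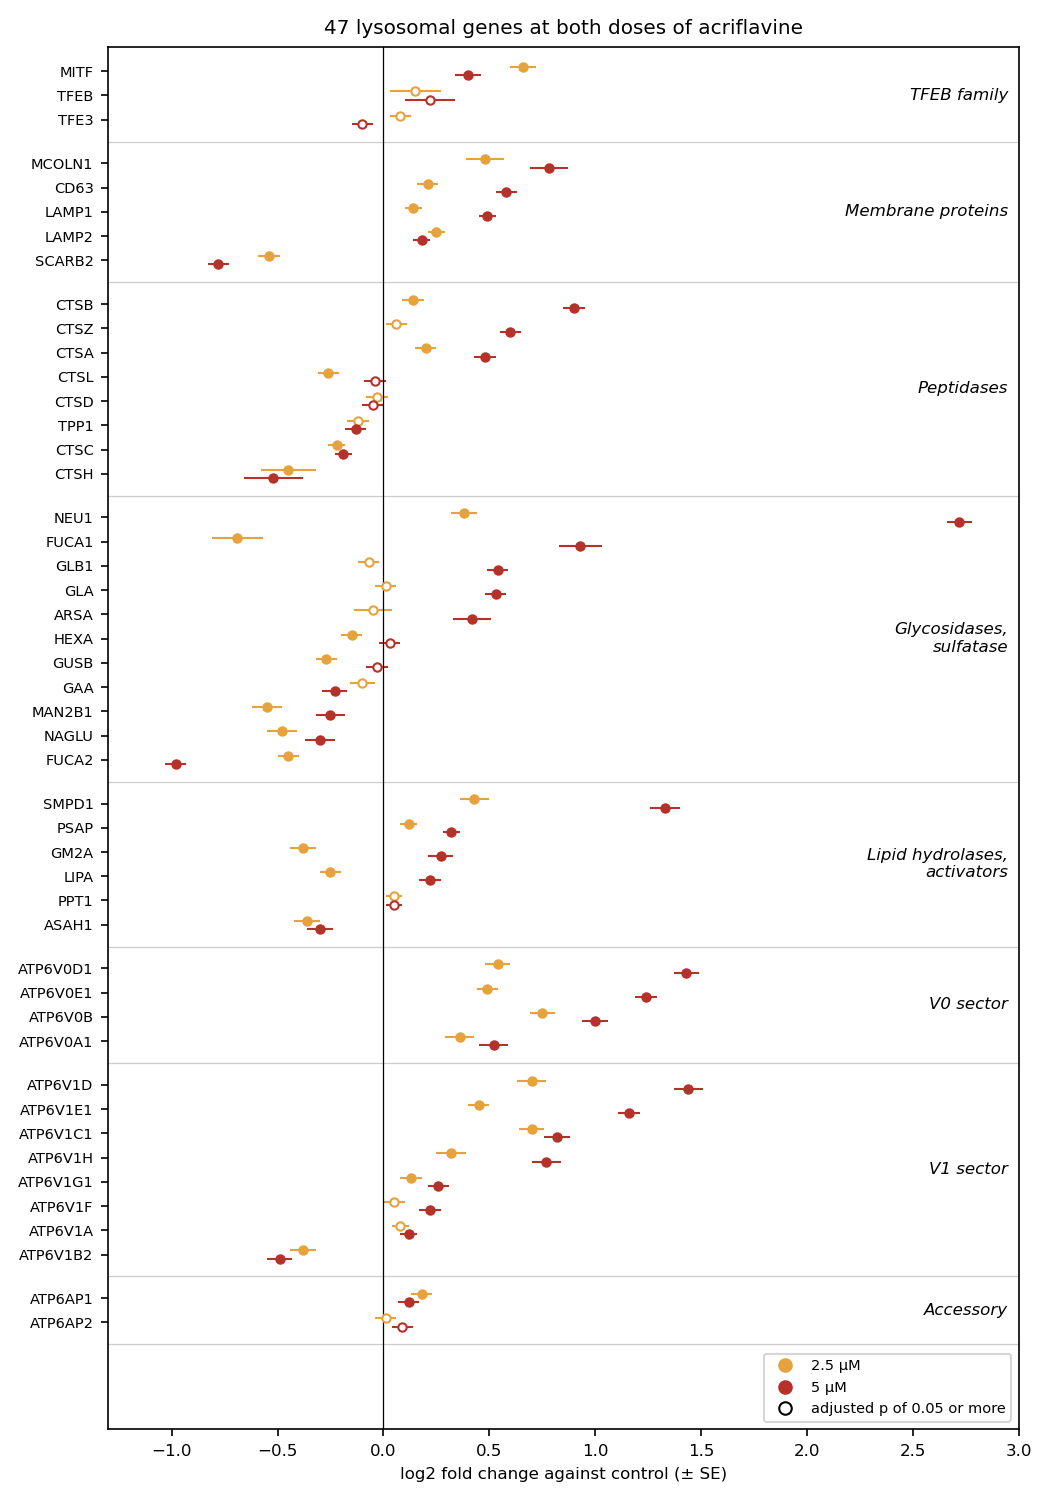
Log2 fold changes against control (horizontal axis, ± SE) of the 47 tested genes, grouped by role, at 2.5 µM (orange) and 5 µM (red). Open circles have an adjusted p of 0.05 or more; the V-ATPase genes lie mostly right of 0 at both doses and NEU1 lies farthest right at 2.72, while the hydrolases lie on both sides.

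Scaling bears on small changes. TMM scaling factors lay between 0.941 and 0.974 in controls, between 0.986 and 0.997 at 2.5 µM, and between 1.047 and 1.060 at 5 µM. With library totals alone the median of all genes at 5 µM moved to 0.12, and 58.2% of calls were higher, against 49.6% with TMM; the members' counts were then 34 higher and 6 lower. Changes under about that size are therefore tied to the choice between these scalings. Both scalings are relative, so larger changes are not thereby shown to be free of the scaling.

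Of the TFEB family, only MITF was called against control by edgeR with TMM scaling. It was the single gene of the 47 (2.13%) that was higher at 2.5 µM and then lower at 5 µM than at 2.5 µM. Of all genes tested, 7.87% had this pattern, so it is not particular to MITF. MITF (ENSG00000187098) had 49.4, 54.4, 43.5 and 49.9 CPM in controls, 79.8, 78.8, 80 and 74.2 at 2.5 µM, and 68.2, 67.6, 61.4 and 63.3 at 5 µM. The 3 groups did not overlap, and the 2.5 µM cultures were highest. The log2 fold change was 0.66 ± 0.06 (SE) at 2.5 µM against control (adjusted p 3.06e-11), 0.40 ± 0.06 at 5 µM against control (6.32e-07) and -0.27 ± 0.06 at 5 µM against 2.5 µM (0.0001934, edgeR).

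TFEB, the best known regulator of lysosomal genes, was called in none of the 3 comparisons by the same test. It had 19.0, 19.2, 21.7 and 14.7 CPM in controls, 23.5, 20.0, 16.3 and 22.6 at 2.5 µM, and 24.9, 23.2, 21.1 and 18.5 at 5 µM, and the groups overlapped. The log2 fold change at 5 µM against control was 0.22 ± 0.12, with an adjusted p of 0.08925 in edgeR, and it lay between 0.11 and 0.36 under 23 alternative analyses, with an adjusted p between 0.008969 and 0.3212. It was called higher in 7 of the 23. Without the third control culture the edgeR adjusted p was 0.04453, and without the fourth 5 µM culture 0.02465. With these cultures kept it was called by DESeq2 (0.26, adjusted p 0.04332). In edgeR it was called with library totals alone (adjusted p 0.008969), without the low count filter (0.03149) and in the 2-group fit (0.03601). This call thus depended on single cultures and on the tool, scaling and filter.

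TFE3 had 105, 102, 114 and 108 CPM in controls, 115, 106, 113 and 118 at 2.5 µM, and 105, 101, 98.3 and 96.9 at 5 µM. The 5 µM values lay below those at 2.5 µM and overlapped the controls. It was lower at 5 µM than at 2.5 µM by edgeR (log2 fold change -0.17 ± 0.05, adjusted p 0.003118) and was not called at 5 µM against control (-0.10 ± 0.05, 0.08772); that second value was called without the second control culture (0.03266) or without the first 5 µM culture (0.04895). With a trend with gene GC content removed (GC correction) it was -0.20 (5.19e-05), and with library totals alone its sign turned (0.04) and the call between the doses ended (-0.08, adjusted p 0.1121). Per length of their summed exons, the family's controls averaged 25 ± 1.24 RPKM (CPM per kilobase) for TFE3, 6.86 ± 0.620 for MITF and 3.31 ± 0.516 for TFEB (SD, n = 4), and at 5 µM 23.4 ± 0.851, 9.07 ± 0.458 and 3.89 ± 0.488 for the same genes. TFE3 was the most abundant of the 3 transcripts in all groups. RNA levels do not show where these proteins were in the cell.

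The lysosomal membrane proteins were called at both doses, 4 higher and 1 lower each time. Among all genes, 78.2% were called at 5 µM against control (38.7% higher, 39.4% lower). At 2.5 µM the share called was 59.1% (30.7% higher, 28.5% lower), so a call in either direction was common at both doses. MCOLN1, the calcium channel TRPML1, had 13.6, 15.2, 14.1 and 18.3 CPM in controls, 23.4, 19.3, 21.4 and 21.0 at 2.5 µM, and 30.2, 25, 26.6 and 23.8 at 5 µM. The 3 groups did not overlap. It was 1.72-fold higher at 5 µM (log2 0.78 ± 0.09, adjusted p 3.15e-09) and 1.39-fold higher at 2.5 µM (0.48 ± 0.09, 5.93e-05, edgeR). Its exons overlap those of PNPLA6 on the same strand in GENCODE 29, so that reads of the shared part are uncertain.

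CD63, a tetraspanin of late endosomes and lysosomes, had 466, 454, 531 and 471 CPM in controls, 570, 544, 541 and 560 at 2.5 µM, and 731, 699, 742 and 693 at 5 µM. Each dose lay above the one before it, and CD63 was 1.49-fold higher at 5 µM than in controls (adjusted p 2.51e-13). LAMP1, a heavily glycosylated protein of the lysosomal membrane, averaged 416 ± 23.1 CPM in controls, 459 ± 4.54 at 2.5 µM and 586 ± 16.4 at 5 µM (SD, n = 4), which was 1.41-fold higher at 5 µM than in controls. Its partner LAMP2 averaged 206 ± 5.84, 246 ± 11.4 and 234 ± 3.93 CPM in the same order. LAMP2 was thus higher at both doses. Its step from 2.5 µM to 5 µM was not called by edgeR with TMM scaling (log2 fold change -0.07 ± 0.04, adjusted p 0.1460). That step was 0.18 once a trend with gene GC content was removed (edgeR adjusted p 0.0001739).

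SCARB2 (LIMP-2), a lysosomal membrane protein that also acts as a sorting receptor, went the other way. It had 147, 142, 139 and 125 CPM in controls, 91.5, 101, 93.2 and 95.8 at 2.5 µM, and 81.5, 77.5, 80.8 and 82.7 at 5 µM. The groups did not overlap at any step, and SCARB2 fell with each dose: it was 1.45-fold lower at 2.5 µM and 1.71-fold lower at 5 µM than in controls (edgeR adjusted p 9.70e-11 and 3.54e-15).

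**Figure D3:**
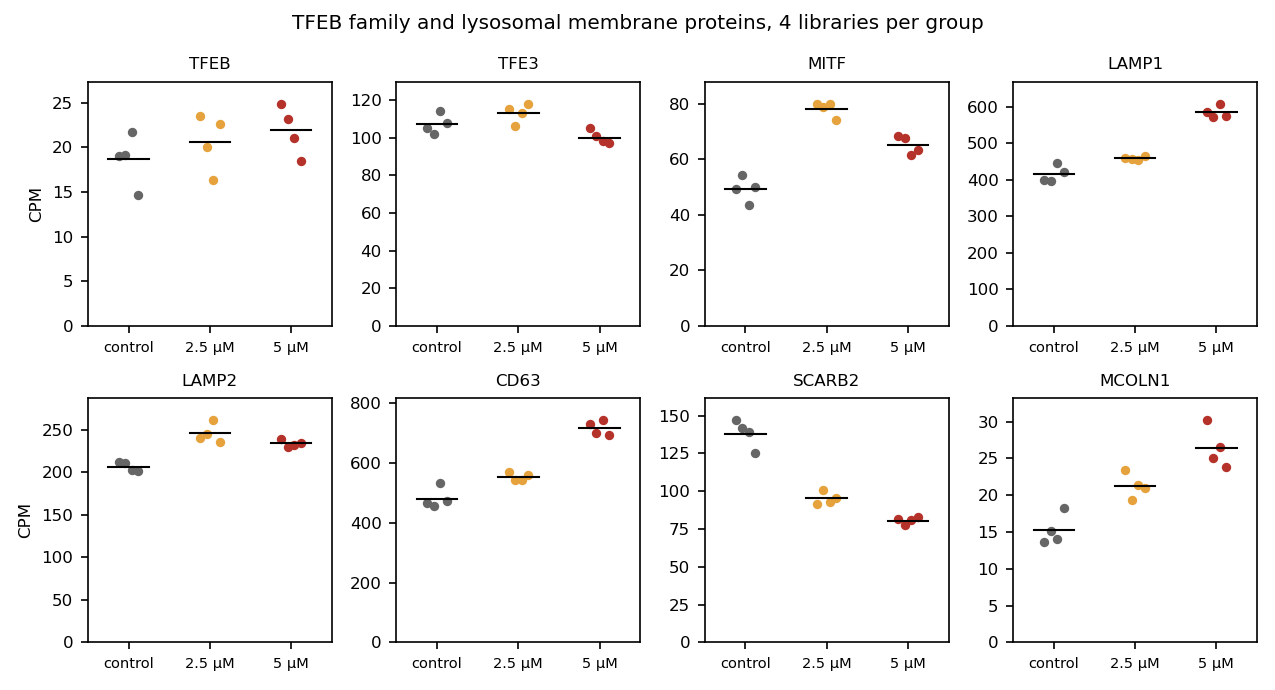
CPM (vertical axes, each from 0) of the 3 TFEB family genes and 5 membrane proteins in the 12 libraries, at control, 2.5 µM and 5 µM; points are libraries and bars group means. MITF peaks at 2.5 µM, TFEB overlaps across groups, LAMP1, CD63 and MCOLN1 climb with dose, and SCARB2 declines to 80.6 CPM at 5 µM.

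Most V-ATPase genes rose at both doses. Of 14 tested subunit genes 12 were higher at 5 µM, 1 was lower and 1 was not called. At 2.5 µM 10 were higher and 1 lower (71.4% and 7.14%, beside 30.7% and 28.5% of all genes). At 5 µM against 2.5 µM 9 were higher and 0 lower (64.3% and 0%, beside 33.6% and 34.8%). The 12 were 85.7% of the 14, beside the 38.7% over all genes given above. The median log2 fold change was 0.64 at 5 µM and 0.34 at 2.5 µM. Summed over the 15 genes, V-ATPase transcripts came to 1379 ± 15.7 CPM in controls, 1675 ± 7.15 at 2.5 µM and 2125 ± 60.7 at 5 µM (SD, n = 4), with no overlap.

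The 4 tested genes of the V0 sector were higher in all 3 comparisons, and 3 of them had at least doubled at 5 µM. Of all genes, 38.7% were higher at 5 µM against control, 30.7% at 2.5 µM against control and 33.6% at 5 µM against 2.5 µM. Both steps, control to 2.5 µM and 2.5 µM to 5 µM, were called higher for 14.8% of all genes. At least 2-fold increases at 5 µM were seen for 15.6% of all genes. ATP6V0D1 (ENSG00000159720), subunit d at the foot of the rotor, had 64.8, 60.0, 71.4 and 74.6 CPM in controls, 98.8, 95.6, 99.6 and 98.1 at 2.5 µM, and 187, 173, 187 and 182 at 5 µM. The groups did not overlap, and the first dose step was 0.54 ± 0.06 on the log2 scale and the second 0.89 ± 0.05. ATP6V0E1, the small subunit e, had 120, 127, 127 and 131 CPM in controls, 177, 172, 175 and 184 at 2.5 µM, and 276, 292, 297 and 328 at 5 µM, which was 2.36-fold higher at 5 µM than in controls (edgeR adjusted p 2.47e-21). ATP6V0B, the proteolipid c″ of the proton-carrying ring, had 79.0, 75.1, 89.6 and 86.0 CPM in controls, 141, 131, 133 and 148 at 2.5 µM, and 175, 166, 164 and 156 at 5 µM. Here the first dose step was 0.75 ± 0.06 and the second 0.25 ± 0.05, and the total was 2.00-fold. Whether the steps of a gene differed in size was not tested for any gene.

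ATP6V0A1, the subunit a1 that holds the proton channels, averaged 49.2 ± 5.21 CPM in controls, 63.0 ± 3.05 at 2.5 µM and 70.5 ± 4.67 at 5 µM, with 5 µM and 2.5 µM overlapping; the call between the doses (0.16 ± 0.06) ended without any of 3 single cultures (edgeR adjusted p 0.08038 to 0.1128). ATP6V0C, the main proteolipid of the ring, could not be judged: this identifier (ENSG00000185883) held 27 counts over the 12 libraries, at 0.190 ± 0.149 CPM in controls, 0.180 ± 0.0915 at 2.5 µM and 0.162 ± 0.0842 at 5 µM. Its exons overlap 2 other annotated genes with 0 counts, and a processed pseudogene, ATP6V0CP3, held 506 counts. The way the authors' counting treated reads of overlapping or near-identical genes is not given in the sources used here, and its low count is not read as absence.

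In the V1 sector 7 of 8 genes were higher at 5 µM and 1 was lower (87.5% and 12.5%, beside 38.7% and 39.4% of all genes). ATP6V1D, a rotor subunit, had 58.0, 55.7, 51.8 and 59.2 CPM in controls, 89.0, 93.9, 93.2 and 88.9 at 2.5 µM, and 132, 148, 146 and 181 at 5 µM. The groups did not overlap, although the 5 µM cultures spread widely, and the gene was 2.71-fold higher at 5 µM than in controls (log2 1.44 ± 0.07, edgeR adjusted p 9.87e-16). ATP6V1E1, of the peripheral stalks, had 126, 125, 122 and 111 CPM in controls, 167, 165, 162 and 167 at 2.5 µM, and 262, 264, 273 and 285 at 5 µM, 2.24-fold higher at 5 µM. ATP6V1C1, which takes part in joining V1 to V0, had 40.1, 42.4, 36.9 and 41.0 CPM in controls, 64.4, 69.0, 67.3 and 61.0 at 2.5 µM, and 70.5, 73.8, 67.7 and 71.5 at 5 µM. It was 1.63-fold higher at 2.5 µM. The step to 5 µM was not called by edgeR with TMM scaling (log2 0.12 ± 0.06, adjusted p 0.07081) but was in 10 of 23 alternatives, among them DESeq2 (0.15, 0.01786) and the GC correction (0.32, 1.43e-07). The exons of ATP6V1D overlap those of EIF2S1 on the other strand, and ATP6V1E1 has a processed pseudogene with 9136 counts, so that part of their reads is uncertain.

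ATP6V1H, a regulatory subunit, was 1.71-fold higher at 5 µM, and its 3 groups did not overlap. The catalytic subunit ATP6V1A, the stalk subunit ATP6V1G1 and the rotor subunit ATP6V1F changed least among those called higher at 5 µM, by log2 fold changes of 0.12 ± 0.04, 0.26 ± 0.05 and 0.22 ± 0.05. The call of ATP6V1A ended without the third control culture (edgeR adjusted p 0.1231) or without the fourth (0.06175). That of ATP6V1G1 at 2.5 µM (0.13 ± 0.05) ended without any of 4 single cultures, with adjusted p between 0.05492 and 0.08712, and that at 5 µM against 2.5 µM without the fourth 5 µM culture (0.06327). ATP6V1B2, which pairs with the catalytic subunit, was the only subunit of the 14 called lower at either dose by edgeR: it averaged 70.4 ± 2.15 CPM in controls, 53.9 ± 2.27 at 2.5 µM and 50.1 ± 4.41 at 5 µM, 1.4-fold lower at 5 µM (adjusted p 8.68e-09). The subunits A and B stand in equal numbers in the pump, while the transcript of B2 was lower and that of A slightly higher; ATP6V1B1, the other B gene, had too few counts to be tested.

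The accessory subunits changed little. ATP6AP1 (Ac45) had 202, 188, 219 and 202 CPM in controls, 232, 234, 230 and 223 at 2.5 µM, and 223, 218, 222 and 221 at 5 µM. The 5 µM values overlapped the controls, and the call at 5 µM (log2 0.12 ± 0.05, edgeR adjusted p 0.01489) ended without the second control culture (0.1238). ATP6AP2, the prorenin receptor, was called in no comparison by edgeR with TMM scaling: it had 170, 161, 153 and 149 CPM in controls, 155, 171, 159 and 151 at 2.5 µM, and 164, 157, 167 and 186 at 5 µM. At 5 µM against control (log2 0.09, adjusted p 0.1022) it was called higher in 8 of 23 alternatives, among them DESeq2 (0.12, 0.04373) and the GC correction (0.20, 7.40e-05), and at 5 µM against 2.5 µM in 5.

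Several subunits have a second gene, and some of these pairs moved apart. Of 18 other V-ATPase genes and partners, 14 were tested; 4 were higher and 8 lower at 5 µM (28.6% and 57.1%, beside 38.7% and 39.4% of all genes), and 4 were higher and 7 lower at 2.5 µM (28.6% and 50.0%, beside 30.7% and 28.5%). The share of higher genes at 2.5 µM was near the background. ATP6V0A4, the subunit a4 known from kidney, averaged 2.28 ± 0.860 CPM in controls, 8.92 ± 0.822 at 2.5 µM and 17.6 ± 0.708 at 5 µM, 7.69-fold higher at 5 µM (edgeR adjusted p 4.15e-19). ATP6V0E2 averaged 31.9 ± 2.00, 16.0 ± 1.64 and 9.71 ± 0.629 CPM in the same order, 3.30-fold lower at 5 µM, where its paralog ATP6V0E1 was higher. ATP6V1E2, known from testis, averaged 11.8 ± 1.3, 7.22 ± 1.00 and 4.34 ± 0.495 CPM, 2.70-fold lower at 5 µM, where ATP6V1E1 was higher. TCIRG1, the subunit a3 known from osteoclasts and named here after its values were seen, averaged 48.8 ± 7.50, 32.3 ± 2.97 and 22.2 ± 3.22 CPM, 2.22-fold lower at 5 µM.

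**Figure D4:**
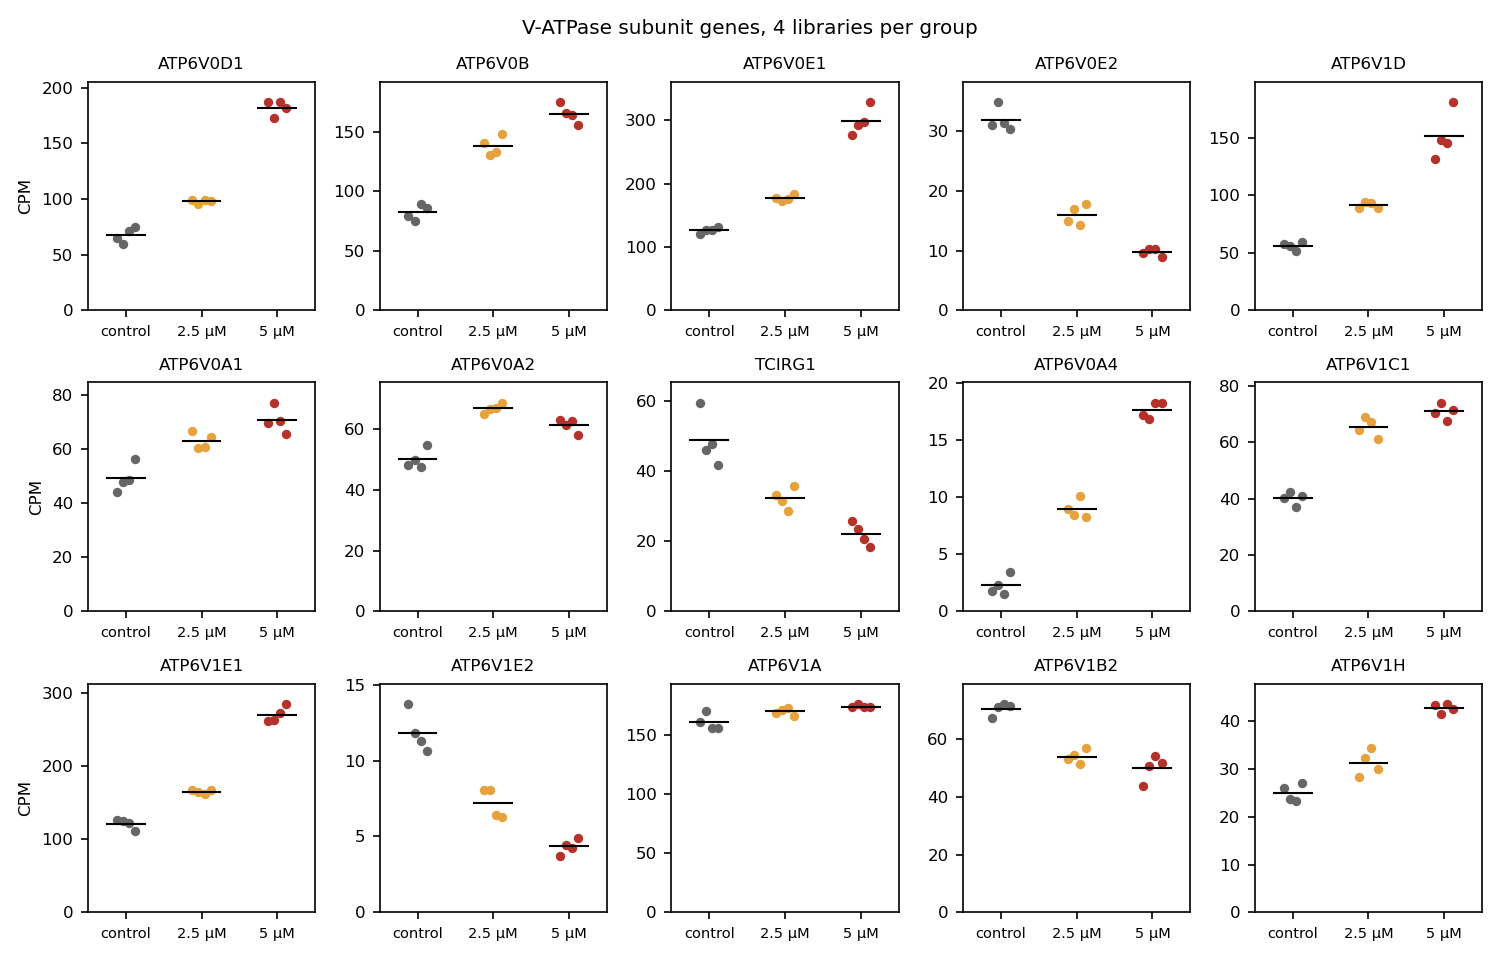
CPM (vertical axes, each from 0) of 15 V-ATPase subunit genes in the 12 libraries, at control, 2.5 µM and 5 µM; points are libraries and bars group means. ATP6V0E1 and ATP6V1E1 climb with dose while their paralogs ATP6V0E2 and ATP6V1E2 decline, ATP6V0A4 climbs where TCIRG1 declines, and ATP6V1B2 lies lower at both doses.

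Against control the hydrolases had no common direction. Of 25 genes 12 were higher and 8 lower at 5 µM (48% and 32.0%, beside 38.7% and 39.4% of all genes), and 5 were higher and 12 lower at 2.5 µM (20.0% and 48%, beside 30.7% and 28.5%). At 5 µM against 2.5 µM 17 were higher and 1 was lower (68.0% and 4%, beside 33.6% and 34.8%). The median log2 fold change was 0.05 at 5 µM and -0.12 at 2.5 µM against control. The summed level was 4128 ± 187 CPM in controls, 4040 ± 98.0 at 2.5 µM and 5173 ± 163 at 5 µM (SD, n = 4). Without NEU1 the sum was 4053 ± 185, 3942 ± 96.9 and 4679 ± 110 CPM.

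The median log2 fold change of the peptidases was -0.04 at 5 µM against control, and its sign depended on the analysis, with a range of -0.09 to 0.09. Cathepsin B (CTSB), a cysteine protease, had 244, 231, 256 and 222 CPM in controls, 267, 259, 246 and 276 at 2.5 µM, and 431, 418, 470 and 456 at 5 µM. The change lay almost wholly between the doses: 1.86-fold at 5 µM against control (edgeR adjusted p 1.3e-17) and 1.1-fold at 2.5 µM, where the values overlapped and the call ended without the fourth control (0.07645) or the fourth 2.5 µM culture (0.1066). Cathepsin Z (CTSZ), a carboxypeptidase, had 173, 162, 163 and 158 CPM in controls, 172, 172, 166 and 173 at 2.5 µM, and 240, 232, 246 and 270 at 5 µM. It was 1.51-fold higher at 5 µM than in controls (adjusted p 3.09e-13), was not called at 2.5 µM, and the step between the doses was 0.53 ± 0.05 on the log2 scale. Cathepsin A (CTSA), which protects NEU1 and GLB1 in a complex, averaged 152 ± 8.63 CPM in controls, 174 ± 7.72 at 2.5 µM and 211 ± 1.84 at 5 µM, with no overlap; its exons overlap those of PLTP on the other strand.

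Cathepsin H (CTSH), an aminopeptidase, was lower, at low counts. It had 11.9, 8.12, 14.1 and 8.62 CPM in controls, 8.47, 7.17, 7.31 and 8.12 at 2.5 µM, and 7.92, 7.46, 6.66 and 7.61 at 5 µM. The controls spread most, and the 5 µM values lay just below the lowest control (log2 -0.52 ± 0.14, edgeR adjusted p 0.0009344). Cathepsin D (CTSD), the main aspartic protease of lysosomes, was called in no comparison by edgeR with TMM scaling: it had 393, 342, 417 and 366 CPM in controls, 383, 374, 353 and 377 at 2.5 µM, and 380, 366, 370 and 356 at 5 µM. With the GC correction it was called lower at 5 µM against control (log2 -0.08, adjusted p 0.03715) and against 2.5 µM (-0.09, 0.01914). Cathepsin C (CTSC) was lower at both doses by log2 fold changes of -0.22 ± 0.04 and -0.19 ± 0.04, and the second did not hold once a trend with gene GC content was removed (0.05). TPP1, a tripeptidase, was lower at 5 µM by -0.13 ± 0.05 with overlapping values, a call that ended without any of 5 single cultures (adjusted p 0.05364 to 0.08442).

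Among the glycosidases NEU1, the lysosomal sialidase, stood apart. NEU1 (ENSG00000204386) had 73.6, 70.6, 77.9 and 77.9 CPM in controls, 98.7, 95.5, 96.7 and 99.2 at 2.5 µM, and 472, 438, 564 and 501 at 5 µM. The 3 groups did not overlap, and the log2 fold change was 0.38 ± 0.06 at 2.5 µM against control and 2.34 ± 0.06 at 5 µM against 2.5 µM. The partners of NEU1 in its complex had smaller fold changes: GLB1, the beta-galactosidase, was 1.45-fold higher at 5 µM and not called at 2.5 µM (log2 -0.07 ± 0.05, edgeR adjusted p 0.2203), and CTSA was 1.39-fold higher at 5 µM. Per length, NEU1 averaged 15.6 ± 0.740 RPKM in controls, 20.2 ± 0.355 at 2.5 µM and 102 ± 11.1 at 5 µM, whereas GLB1 averaged 20.0 ± 1.05, 18.9 ± 0.654 and 29 ± 1.02 RPKM. NEU1 thus averaged above GLB1 at both doses and below it in controls. Without NEU1 the summed level of the other 10 genes of the group was 834 ± 24.9 CPM in controls, 699 ± 28.1 at 2.5 µM and 801 ± 17.7 at 5 µM.

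The fucosidases moved apart. FUCA2, the secreted form, had 178, 187, 194 and 199 CPM in controls, 140, 142, 134 and 139 at 2.5 µM, and 91.6, 94.6, 98.7 and 98.3 at 5 µM, 1.98-fold lower at 5 µM (edgeR adjusted p 4.50e-19), with no overlap at any step. FUCA1, the lysosomal form, had 16.1, 15.6, 15.6 and 18.0 CPM in controls, 9.0, 11.3, 10.9 and 9.33 at 2.5 µM, and 28.2, 24.7, 37.2 and 33.5 at 5 µM. It was 1.61-fold lower at 2.5 µM (adjusted p 7.33e-06) and 1.90-fold higher at 5 µM (1.16e-09) than in controls, and no 2 groups overlapped. The sulfatase ARSA and the alpha-galactosidase GLA were higher at 5 µM by log2 fold changes of 0.42 ± 0.09 and 0.53 ± 0.05 and were not called at 2.5 µM. GAA, the acid alpha-glucosidase, was 1.18-fold lower at 5 µM (0.0008167), a call that ended with library totals as the scaling (0.1343).

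FUCA1 was the steepest of 8 hydrolase genes that were lower at 2.5 µM than in controls and higher at 5 µM than at 2.5 µM. The 8 were 17.0% of the 47 genes, where 5.94% of all genes tested had this pattern; both steps share the 2.5 µM libraries, so they are not independent. The others were CTSL, HEXA, GUSB, NAGLU, MAN2B1, GM2A and LIPA. GM2A, the activator that presents ganglioside to hexosaminidase A, had 65.9, 69.2, 73.7 and 73.9 CPM in controls, 52.1, 51.4, 56.8 and 57.1 at 2.5 µM, and 80.3, 76.9, 95.6 and 88.2 at 5 µM. LIPA, the acid lipase that frees cholesterol from its esters, had 160, 165, 173 and 158 CPM in controls, 137, 138, 139 and 138 at 2.5 µM, and 183, 185, 198 and 197 at 5 µM. Like FUCA1, both ended above the controls, by 1.21-fold and 1.16-fold (edgeR adjusted p 0.0001726 and 5.20e-05), with no overlap between any 2 groups.

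For the next 3 of the 8, 5 µM and control were not told apart by edgeR with TMM scaling, but each was called under some alternative. With library totals alone HEXA (log2 0.16, edgeR adjusted p 0.005451) and GUSB (0.11, 0.04092) were higher at 5 µM; with a trend with gene GC content removed CTSL (-0.12, 0.005984) and GUSB (-0.11, 0.01965) were lower. The cysteine protease CTSL had 172, 160, 183 and 171 CPM in controls, 142, 148, 138 and 146 at 2.5 µM, and 162, 160, 168 and 175 at 5 µM. GUSB, the beta-glucuronidase, had 136, 125, 138 and 123 CPM in controls, 110, 109, 103 and 111 at 2.5 µM, and 134, 122, 132 and 124 at 5 µM. HEXA, the alpha subunit of hexosaminidase A, had 119, 128, 139 and 122 CPM in controls, 114, 114, 105 and 124 at 2.5 µM, and 125, 132, 133 and 128 at 5 µM. The 2.5 µM values of CTSL and GUSB lay below both other groups, whereas those of HEXA overlapped the controls (log2 -0.15 ± 0.05), and its call at 2.5 µM ended without the third 2.5 µM culture (edgeR adjusted p 0.07954).

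The remaining pair, both for glycan breakdown, stayed below the controls at 5 µM. NAGLU, an N-acetylglucosaminidase for heparan sulfate, had 77.7, 70.6, 81.9 and 67.3 CPM in controls, 55.1, 50.8, 47.1 and 60.0 at 2.5 µM, and 64.7, 61.4, 60.9 and 55.6 at 5 µM. MAN2B1, the alpha-mannosidase, had 39.2, 39.5, 39.8 and 34.7 CPM in controls, 28.0, 26.3, 24.4 and 26.0 at 2.5 µM, and 32.9, 32.4, 34.1 and 29.7 at 5 µM. Between the doses NAGLU overlapped and MAN2B1 did not; the second step of NAGLU (log2 0.18 ± 0.07, edgeR adjusted p 0.02206) ended without any of 3 single cultures (0.06971 to 0.1284), and MAN2B1 at 5 µM against control (-0.25 ± 0.07) was not called with library totals as the scaling (0.1282).

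**Figure D5:**
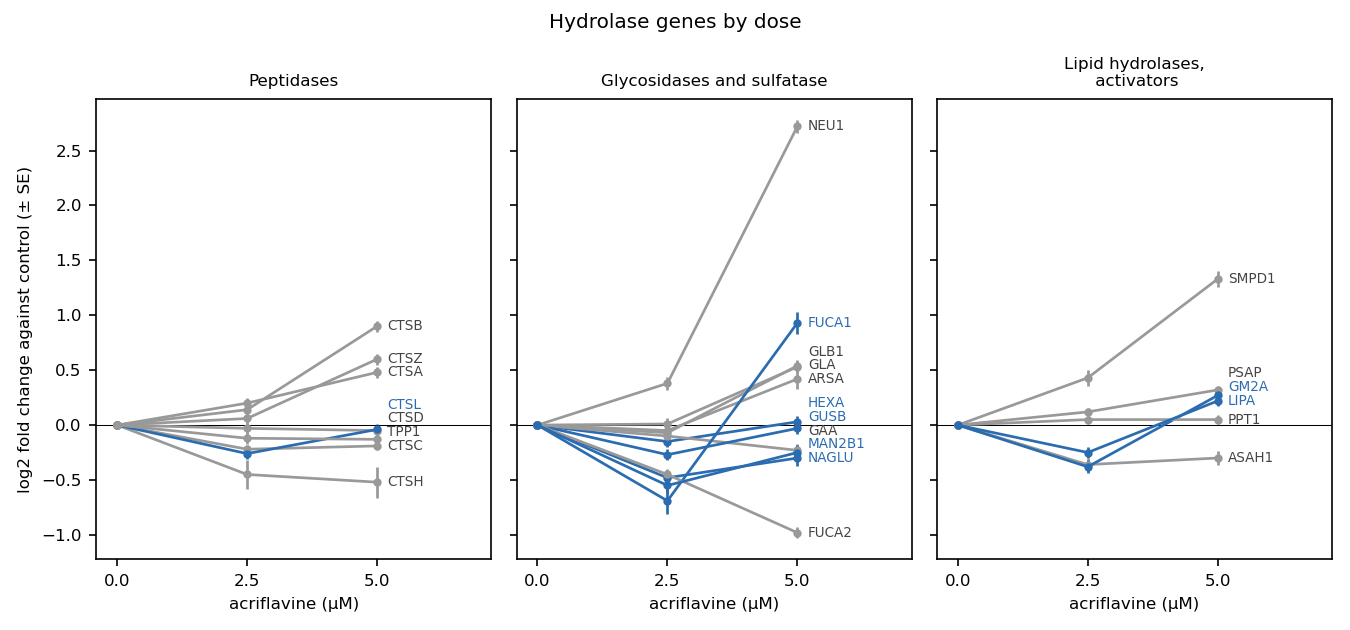
Log2 fold change against control (vertical axis, ± SE) of the 25 hydrolase genes over the acriflavine dose in µM (horizontal axis), in 3 panels by substrate. Blue lines are the 8 genes that were lower at 2.5 µM than in controls and higher at 5 µM than at 2.5 µM; FUCA1 lies at -0.69 and then at 0.93, and NEU1 reaches 2.72.

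Of the lipid hydrolases and their activators, 4 of 6 were higher at 5 µM and 1 was lower. These were 66.7% and 16.7%, beside 38.7% and 39.4% of all genes. SMPD1, the acid sphingomyelinase, had 30.9, 30.4, 35.3 and 28.3 CPM in controls, 42.3, 42.1, 38.2 and 44.8 at 2.5 µM, and 81.1, 76.8, 76.5 and 78.3 at 5 µM. It rose at both steps with no overlap, 1.34-fold at 2.5 µM and 2.51-fold at 5 µM against control (edgeR adjusted p 2.18e-06 and 7.04e-19). PSAP, the precursor of the saposins that help several sphingolipid hydrolases, had the highest level per length of the 48 genes in controls (366 ± 22.3 RPKM), with 1221, 1138, 1271 and 1117 CPM in controls, 1295, 1276, 1244 and 1331 at 2.5 µM, and 1489, 1432, 1518 and 1482 at 5 µM. It was 1.25-fold higher at 5 µM (6.94e-08); at 2.5 µM its values overlapped the controls, and the call (1.08-fold) ended without any of 5 single cultures (0.05525 to 0.1251).

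ASAH1, the acid ceramidase, which acts on the product of SMPD1, was lower. It had 92.4, 93.1, 84.6 and 79.2 CPM in controls, 64.7, 72.4, 68.3 and 66.9 at 2.5 µM, and 71.6, 65.6, 71.3 and 74.8 at 5 µM. Both doses lay below all controls and overlapped each other; the log2 fold change at 5 µM was -0.30 ± 0.06 (edgeR adjusted p 2.16e-05), a call that ended once a trend with gene GC content was removed (0.5128). PPT1, a palmitoyl thioesterase, was called in no comparison by edgeR with TMM scaling: it had 189, 192, 211 and 198 CPM in controls, 203, 203, 205 and 206 at 2.5 µM, and 196, 201, 212 and 210 at 5 µM. With library totals alone it was called higher at 5 µM (log2 0.19, adjusted p 0.0001434) and at 2.5 µM (0.10, 0.04476) against control. Its exons overlap those of CAP1 on the other strand, and those of LIPA overlap IFIT2 on the other strand.

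Other genes of the pathway were read from lists of lysosomal proteins outside the 48, of sorting receptors and of the mTORC1 axis. Of 41 other lysosomal genes 38 were tested: 19 were higher and 12 lower at 5 µM (50.0% and 31.6%, beside 38.7% and 39.4% of all genes), and 12 were higher and 16 lower at 2.5 µM (31.6% and 42.1%, beside 30.7% and 28.5%). The share of higher genes at 2.5 µM was thus near the background. IDS, iduronate sulfatase, averaged 35.6 ± 1.58 CPM in controls, 19.9 ± 0.393 at 2.5 µM and 12 ± 1.12 at 5 µM, 2.97-fold lower at 5 µM (edgeR adjusted p 1.32e-18). Its reads can be shared with a near-identical pseudogene.

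Sorting receptors carry new hydrolases to lysosomes, mostly by mannose 6-phosphate. Of 9 sorting genes 6 were higher and 2 lower at 5 µM, with the same counts at 2.5 µM (66.7% and 22.2%, beside 38.7% and 39.4% of all genes at 5 µM and 30.7% and 28.5% at 2.5 µM). The small mannose 6-phosphate receptor M6PR averaged 134 ± 7.62 CPM in controls, 175 ± 3.25 at 2.5 µM and 237 ± 3.03 at 5 µM, 1.76-fold higher at 5 µM (edgeR adjusted p 1.85e-17). The large receptor IGF2R averaged 291 ± 20.1, 366 ± 9.88 and 374 ± 13.4 CPM and the adaptor GGA3 38.4 ± 1.72, 49.5 ± 3.43 and 55.0 ± 2.89 CPM in the same order, 1.29-fold and 1.43-fold higher at 5 µM.

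Of 23 tested genes of the mTORC1, Rag and folliculin axis, which acts upstream of TFEB, 10 were higher and 9 lower at 5 µM (43.5% and 39.1%, near the 38.7% and 39.4% of all genes), and 8 were higher and 3 lower at 2.5 µM (34.8% and 13.0%, beside 30.7% and 28.5%). RRAGA, a small GTPase that recruits mTORC1 to lysosomes, averaged 73.1 ± 3.41 CPM in controls, 80 ± 3.47 at 2.5 µM and 107 ± 2.80 at 5 µM, 1.46-fold higher at 5 µM (edgeR adjusted p 1.44e-11). LAMTOR1, which anchors the Rag GTPases to the membrane, averaged 63.6 ± 3.05, 58.8 ± 3.27 and 40.2 ± 2.78 CPM, 1.58-fold lower at 5 µM. MLST8, a subunit of both mTOR complexes, averaged 108 ± 7.71, 69.1 ± 4.62 and 66.6 ± 2.88 CPM, 1.62-fold lower at 5 µM.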

How the data were processed

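The authors deposited 1 table of raw counts, whole numbers per Ensembl gene. Per the submitters' processing notes, the build was GRCh37 and the tools were featureCounts 1.4.6, STAR 2.4.1d, Bowtie2 2.2.4, Cufflinks 2.1.1, SAMtools 1.1, edgeR 3.8.6, cutadapt 1.7.1 and bedtools 2.17.0, with no roles stated. Per the labels' protocols, libraries were strand-marked poly-A libraries; the strand setting, annotation release and handling of multiply mapping reads were not given in the sources used here. Of 63152 genes, 32171 had 0 counts in every library and 0 rows named no gene.

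Symbols and exon lengths came from GENCODE 29 (GRCh38) by Ensembl identifier; gene coordinates are left out because the builds differ. Beside the overlaps named with the results, an antisense gene overlaps CD63 (1376 counts) and a pseudogene overlaps GLB1 (2939). ATP6V0E1 (1577) and GUSB (1302) have pseudogenes with counts, so a part of the reads of all these genes is uncertain. Overlaps with lower counts are not all listed. Among them, TMPPE (289 counts) overlaps GLB1 on the same strand, and same-strand genes with 0 or 1 counts overlap HEXA, CTSD and MAN2B1. Summed exon length can understate RPKM of genes with long, rarely used exons. Genes were filtered with filterByExpr (16839 kept) and tested with edgeR 4.0.16 in R 4.3.3: TMM, robust quasi-likelihood fit of all 12 libraries with 3 groups and 9 residual degrees of freedom, 2-sided, Benjamini-Hochberg over all genes tested, threshold 0.05. CPM uses TMM-scaled library sizes. SE is the absolute log2 fold change divided by the square root of F. The steps were also run on simulated libraries in which few genes changed. In these data 78.2% of genes were called at 5 µM, so that run does not bear on the scaling. Alternatives were other scalings and filters, DESeq2 1.42.0, voom in limma 3.58.1, 2-group fits, a replicate block, GC correction and leaving out each library. No pair of libraries within a group was identical (chi-square per degree of freedom 1.66 to 5.41).

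The members, role groups and other lists were chosen with earlier results of these data known. Values in every library are given for the TFEB family, for up to 3 called members per role group with the largest change at 5 µM, for members with opposite called steps and for members called in no comparison; from each other list, up to 3 genes with the smallest p at 5 µM are given. Some genes that this rule names are not reported here.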

Additional observations from a re-analysis of the deposited data

Results flagged for a closer look

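In 4 of 141 groups of 4 libraries, 1 library lay apart from the other 3 by Dixon's criterion at 95%, which chance gives in about 1 of 20 groups. CTSC was at 251 CPM in the third 5 µM culture, where the others had 236 to 238. CTSZ was at 166 CPM in the third 2.5 µM culture, where the others had 172 to 173. MAN2B1 was at 34.7 CPM in the fourth control culture, where the others had 39.2 to 39.8. ATP6V1A was at 176 CPM in the second 5 µM culture, where the others had 174.

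The doses differed in direction for 3 genes, which were higher than control at 5 µM and lower at 2.5 µM. A gene was listed here only if the difference itself, 5 µM against 2.5 µM, was also called by edgeR in the fit of all libraries. That call is therefore part of the choice and gives no separate support. The log2 fold change of this difference was 1.62 for FUCA1, 0.65 for GM2A and 0.47 for LIPA.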

How the results depend on the processing

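Single genes were refitted under 23 alternatives. Of 3243 such values 3116 kept their direction and side of the threshold (64 of them changed sign while not called in either analysis), 46 lost a call, 75 gained one and 6 reversed. The reversed values at 5 µM against control were CTSC with GC correction, alone and with the replicate block (0.05 each), and TPP1 (0.01) and GUSB (0.11) with library totals alone. LAMP2 at 5 µM against 2.5 µM reversed to 0.18 with GC correction, alone and with the block. The count of lower members at 5 µM against control was 6 with library totals alone, and at 5 µM against 2.5 µM it was 7 with GC correction, alone and with the block. The cause was not tested. Leaving out 1 library gave 28 to 30 higher and 9 to 11 lower members at 5 µM against control, 17 to 20 and 13 to 15 at 2.5 µM, and 27 to 30 and 4 to 5 at 5 µM against 2.5 µM. Same-numbered libraries of different groups did not deviate together (correlation -0.13 to 0.07), so the numbers are not taken as pairs; with the replicate block no member's call changed, with 29 higher and 10 lower members at 5 µM, and 6493 higher and 6598 lower genes in all. With voom in limma no member's call changed. Each group has 4 cultures of 1 line, and these libraries show RNA levels, not protein, acidity or enzyme activity.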
